A study of Homo sapiens with 6 samples.

Results

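The CDK1 switch of mitotic entry was followed through 10 genes, out of 62710 genes analysed, in H526 cells that had become resistant to the PLK1 inhibitor onvansertib. The genes were taken by name from the deposited table: the kinase CDK1, the B-type cyclins CCNB1 and CCNB2, the phosphatases CDC25A, CDC25B and CDC25C, the inhibitory kinases WEE1 and PKMYT1, the transcription factor FOXM1 and the checkpoint kinase CHEK1. All 10 were found once each and all 10 passed the filter on low values. H526 is an established small cell lung cancer line. RNA was sequenced in 3 libraries of parental H526 cells, numbered 1 to 3, and in 3 libraries of onvansertib-resistant H526 cells, numbered 7 to 9, which had been selected in onvansertib raised from 10 to 75 nM over a year. Both groups derive from the same line, no transgene is named, and the RNA of each group was harvested at 3 separate times. A single resistant population is described, so the libraries of a group are harvests of 1 population and p-values measure the spread between them. Whether onvansertib was in the medium at harvest is not given in the sources used here. The study asked which genes change with acquired resistance to PLK1 inhibition.

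CDK1 bound to cyclin B is the kinase that drives a cell from G2 into mitosis. WEE1 and PKMYT1, also called MYT1, hold it inactive by phosphorylating its ATP-binding loop, and CDC25 phosphatases remove those phosphates. PLK1, the target of onvansertib, tips this balance by activating CDC25C and by acting against WEE1 and PKMYT1, so that CDK1 activity rises in a switch-like manner. CHEK1 restrains the CDC25 phosphatases when DNA is damaged or not fully replicated, and FOXM1 drives transcription of CCNB1, CDC25B, PLK1 and other G2/M genes. Phosphorylation and dephosphorylation act on the proteins, and the measurements here are of RNA.

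The values are gene counts that the authors quantified with RSEM and normalized with DESeq2, and are called normalized values below. They are not whole reads. The value of 1 read, read from the commonest low value in each library, lay between 0.882 and 1.07, which gave a depth of about 22473555 to 28768325 reads per library. The lowest value of any member, that of CDC25C, stood for about 434 reads, where counting error alone is 4.80%, and for the other members it was at most 3.12%. In bulk RNA, fewer cells in G2 and less RNA per cell cannot be told apart. POU2F3, which marks the tuft-like subtype of this cancer, stood at 25809 ± 1178 (SD, n = 3) in parental and 27273 ± 535 in resistant libraries, and NEUROD1 was at or near 0. POU2F3 was the only tested gene of the identity list that did not pass (adjusted p = 0.304 by limma): of 9 tested, 2 were higher and 6 lower. The other tuft cell genes, named with values known, were split. TRPM5 and GFI1B had log2 fold changes of 1.77 and 0.20, and AVIL and ASCL2 had -0.80 and -0.47. The neuroendocrine genes INSM1, SYP, CHGA and NCAM1 had -2.28, -2.15, -4.22 and -0.48. Of 10 stroma and blood markers, 3 passed the filter, COL1A1, COL1A2 and VWF, and all 3 were higher in resistant cells, with COL1A1 going from 59.7 ± 21.9 to 269 ± 34.7 (SD, n = 3). The summed value of those 10 markers ranged from 381 to 521 in parental and from 828 to 1048 in resistant libraries, and PTPRC, CD3E and PECAM1 were at or near 0. Their part in the results was not tested.

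Transcription of many G2/M genes is known to peak in G2 through promoters that carry CCAAT boxes and a cell cycle homology region, or CHR. Some promoters of cell cycle genes also carry E2F sites. Whether each member follows this pattern was not tested. RefSeq promoter windows on GRCh38.p14 were at hand for 7 of the 10 members, and the windows below run from 250 bases before the start of the canonical transcript to 30 bases from it. CDK1, both B-type cyclins and the CDC25 phosphatases are shown because the results on CCNB2, CDC25A and CDC25B are read beside those of their partner and relatives. Capitals mark the letters TTTGAA (CHR), CCAAT, and TTTGGCGC or TTTCGCGC (E2F), searched on both strands, and no 2 of these matches overlap.
CDK1 (chr10:60778228-60778507, plus strand): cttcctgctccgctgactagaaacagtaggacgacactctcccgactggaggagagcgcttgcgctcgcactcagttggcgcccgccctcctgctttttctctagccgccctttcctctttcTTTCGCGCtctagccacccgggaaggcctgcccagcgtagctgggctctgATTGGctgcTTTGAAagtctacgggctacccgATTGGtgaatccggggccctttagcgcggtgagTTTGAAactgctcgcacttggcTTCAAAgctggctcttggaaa
CCNB1 (chr5:69166900-69167179, plus strand): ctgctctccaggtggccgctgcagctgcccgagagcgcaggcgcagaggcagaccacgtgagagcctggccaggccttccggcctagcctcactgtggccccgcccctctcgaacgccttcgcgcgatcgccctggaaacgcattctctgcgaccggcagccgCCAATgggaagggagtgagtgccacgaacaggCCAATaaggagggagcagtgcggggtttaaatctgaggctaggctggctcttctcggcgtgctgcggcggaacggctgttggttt
CCNB2 (chr15:59104896-59105175, plus strand): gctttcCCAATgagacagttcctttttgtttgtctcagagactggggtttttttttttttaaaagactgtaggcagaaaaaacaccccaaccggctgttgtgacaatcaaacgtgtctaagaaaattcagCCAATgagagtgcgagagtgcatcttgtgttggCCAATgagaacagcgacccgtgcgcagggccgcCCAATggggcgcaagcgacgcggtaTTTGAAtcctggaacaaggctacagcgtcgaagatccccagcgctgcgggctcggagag
CDC25A (chr3:48188388-48188667, minus strand): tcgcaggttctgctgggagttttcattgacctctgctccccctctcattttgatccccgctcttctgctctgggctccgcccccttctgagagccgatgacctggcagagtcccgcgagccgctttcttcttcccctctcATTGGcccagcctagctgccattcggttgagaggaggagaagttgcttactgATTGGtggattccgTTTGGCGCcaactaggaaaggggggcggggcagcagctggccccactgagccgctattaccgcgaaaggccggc
CDC25B (chr20:3796060-3796339, plus strand): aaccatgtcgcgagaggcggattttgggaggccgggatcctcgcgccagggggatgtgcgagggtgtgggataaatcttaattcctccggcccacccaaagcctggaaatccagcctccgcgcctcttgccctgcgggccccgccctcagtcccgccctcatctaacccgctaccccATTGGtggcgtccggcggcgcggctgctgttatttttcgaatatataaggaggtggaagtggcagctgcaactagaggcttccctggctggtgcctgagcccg
CDC25C (chr5:138331775-138332054, minus strand): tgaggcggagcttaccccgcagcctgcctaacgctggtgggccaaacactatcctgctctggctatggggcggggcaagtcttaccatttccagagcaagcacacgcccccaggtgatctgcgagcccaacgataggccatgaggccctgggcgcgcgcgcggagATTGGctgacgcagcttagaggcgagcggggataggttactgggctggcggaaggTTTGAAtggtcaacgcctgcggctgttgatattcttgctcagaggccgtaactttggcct

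Each of the 7 windows held CCAAT, against 35.5% of 19096 windows with 1 taken per gene. TTTGAA stood in 3 of the 7 windows, those of CDK1, CCNB2 and CDC25C, against 12.4% of all windows, and an E2F sequence in 2, those of CDK1 and CDC25A, against 1.41%. In a list of 34 other G2/M genes, 20 of the 30 windows at hand held TTTGAA and 24 held CCAAT, and in a list of 27 G1/S genes the numbers were 1 and 16 of 23. CCNB1 carried CCAAT from positions -87 and -55, counted from the start of the transcript, and CCNB2 from -244, -120, -87 and -54, followed by TTTGAA from -29. CDC25C carried TTTGAA from -30 and CDC25A its E2F sequence from -44. CHEK1 was the exception in annotation and is not shown, since the start site of its nearest window lay 1061 bases from the start of the canonical transcript. Only these exact letters were searched, so a window without TTTGAA is not shown to lack a CHR. The matches are descriptions of letters and were not tested against the changes in expression.

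**Figure D1:**
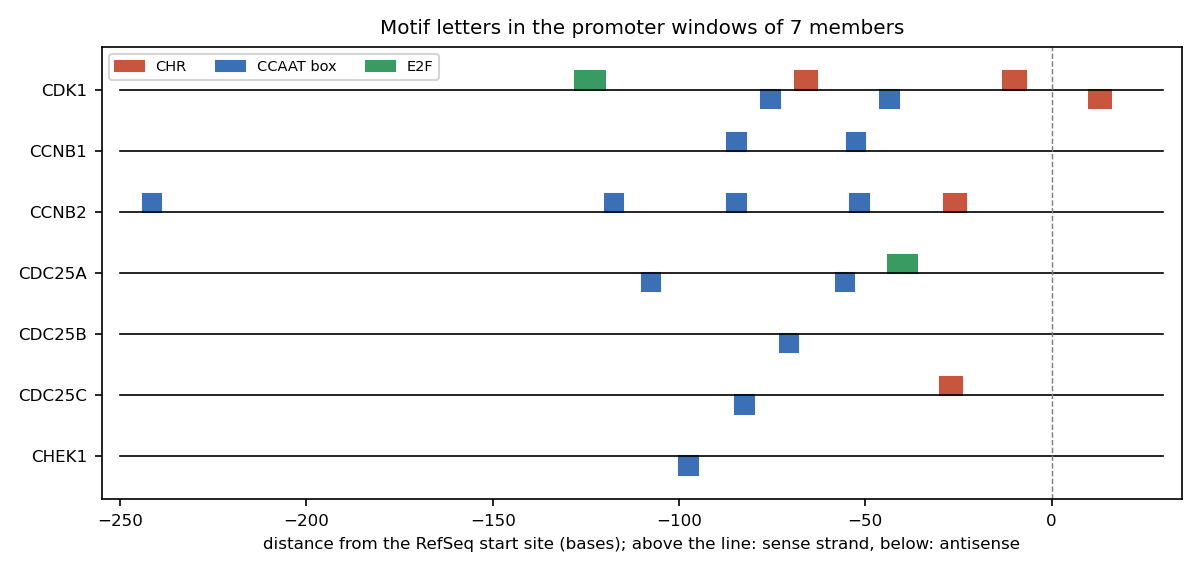
Matches to the CHR, CCAAT and E2F letters in the promoter windows of 7 members, by distance in bases from the RefSeq start site, with sense matches above and antisense matches below each line. CCNB2 has 4 CCAAT matches and CCNB1 has 2, and TTTGAA, the only CHR letters searched, is seen in CDK1, CCNB2 and CDC25C.

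Between parental and resistant cells, 4 of the 10 members were past the threshold of an adjusted p under 0.05 by limma with Benjamini-Hochberg adjustment over 16347 genes, 1 higher and 3 lower in resistant cells. Over all genes tested the share past it was 37.7%, with 17.8% higher and 19.8% lower. CDC25B, CDC25A and PKMYT1 fell and CCNB2 rose. CDK1, FOXM1 and CHEK1 had log2 fold changes (log2FC, resistant minus parental, on the log2(value + 1) scale) between -0.06 and -0.05. The median log2FC of the members was -0.14, against 0.00 over all genes tested, and their median absolute value was 0.25, against 0.30. With the upper quartile of the libraries set equal, or with quantile normalization, the count was 2 higher and 2 lower. Groups were apart, with no overlapping values, for 6 members, and this was so for 49.9% of all genes tested. An exact two-sided permutation test of 3 libraries against 3 cannot go below p = 0.10, which those 6 members reached.

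**Figure D2:**
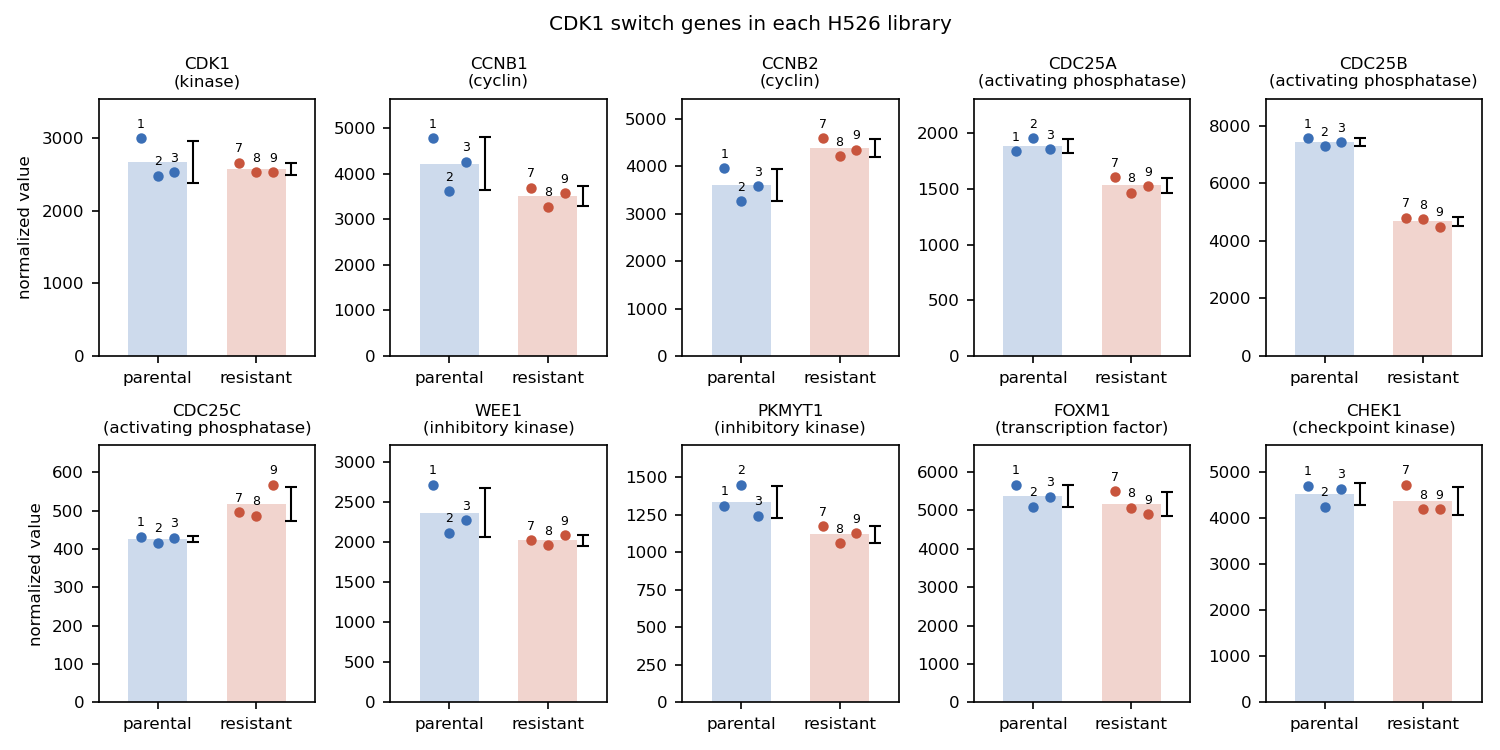
Normalized value of each member in each library (points, numbered by library), with the mean of the group (bars) and its SD (black, n = 3). The CDC25B points of resistant cells lie between 4493 and 4799, all under the parental points, which lie between 7285 and 7574.

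CDK1 (ENSG00000170312, chromosome 10 of GRCh38, 60778331 to 60794852), the catalytic subunit, had values of 3002, 2485 and 2533 in parental libraries 1, 2 and 3 and of 2665, 2533 and 2528 in resistant libraries 7, 8 and 9. Parental library 1 stood above all others and the groups overlapped. Its log2FC was -0.05 (standard error 0.08, 95% interval -0.23 to 0.13, adjusted p = 0.673 by limma). Leaving out parental library 1 turned its sign, to 0.04.

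Of the B-type cyclins, which CDK1 needs for activity, CCNB2 passed the test and CCNB1 did not. CCNB1 (ENSG00000134057, chromosome 5, 69167135 to 69178245), the cyclin that moves into the nucleus at mitotic entry, was at 4788, 3627 and 4269 in parental libraries 1 to 3 and at 3702, 3280 and 3579 in resistant libraries 7 to 9. Parental library 2 lay below resistant library 7, so the groups overlapped. Its log2FC of -0.26 (standard error 0.10, 95% interval -0.47 to -0.04) did not pass the test (adjusted p = 0.0618 by limma). With 1 library left out, it passed only without parental library 2, with -0.36 (adjusted p = 0.00907 by limma). Without parental library 1 it was -0.16 (adjusted p = 0.191 by limma). CCNB2 (ENSG00000157456, chromosome 15, 59105126 to 59125045), the cyclin found mainly at the Golgi, was at 3955, 3268 and 3582 in the parental and at 4595, 4208 and 4349 in the resistant libraries. Every resistant library stood above every parental one. CCNB2 rose by 0.29 (standard error 0.08, 95% interval 0.11 to 0.46, adjusted p = 0.0158 by limma). The call was lost without parental library 2, without parental library 3 and without resistant library 7, with log2FC of 0.22, 0.29 and 0.25 and adjusted p of 0.0518, 0.0509 and 0.061 by limma. It was also lost without the intensity trend (adjusted p = 0.0709), and the direction turned when the shift of its chromosomal neighbours was subtracted (-0.31, adjusted p = 0.0142 by limma).

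The ratio of CCNB1 to CCNB2 was compared between libraries. Within a library, where scaling has no effect, the log2 ratio of CCNB1 over CCNB2 was 0.28, 0.15 and 0.25 in parental libraries 1 to 3 and -0.31, -0.36 and -0.28 in resistant libraries 7 to 9. Every resistant library was lower than every parental one in this ratio, which is not corrected for length and does not order the 2 cyclins. The mean went from 0.23 ± 0.07 to -0.32 ± 0.04 (SD, n = 3). The chromosomal neighbours of CCNB2 had a median log2FC of 0.52 and those of CCNB1 one of 0.07, and with these subtracted in each library CCNB1 and CCNB2 had nearly equal log2FC of -0.33 and -0.31. Their sum over CDK1 had a log2 ratio of 1.55 ± 0.08 in parental and 1.62 ± 0.05 in resistant cells (SD, n = 3), and the groups overlapped. These ratios carry no test, since they were built on members chosen with results known.

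The 3 CDC25 phosphatases, which remove the inhibitory phosphates from CDK1, held 2 genes that fell and 1 that did not pass the test. CDC25B (ENSG00000101224, chromosome 20, 3786772 to 3806121), held to be the starter phosphatase that acts first at the centrosome, was at 7574, 7285 and 7436 in parental libraries 1 to 3 and at 4799, 4755 and 4493 in resistant libraries 7 to 9. Every resistant library lay below every parental one. CDC25B fell to 63.0% of its parental mean, a log2FC of -0.67 (standard error 0.06, 95% interval -0.79 to -0.54, adjusted p = 1.78e-05 by limma), the largest absolute change of the 10 members. Under 15 alternative settings it stayed between -0.73 and -0.61, with a highest adjusted p of 0.0024 by limma.

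CDC25A (ENSG00000164045, chromosome 3, 48157146 to 48188417), which also acts at the start of S phase and is broken down after CHEK1 phosphorylates it, was at 1839, 1957 and 1859 in the parental and at 1606, 1466 and 1525 in the resistant libraries. The lowest parental value lay above the highest resistant one. CDC25A fell by 0.30 on the log2 scale (standard error 0.07, 95% interval -0.46 to -0.14, adjusted p = 0.00781 by limma). CDC25C (ENSG00000158402, chromosome 5, 138285269 to 138338355), the family member that PLK1 and CDK1 activate by phosphorylation, was at 432, 417 and 429 in parental libraries 1 to 3 and at 496, 487 and 568 in resistant libraries 7 to 9. The groups did not overlap, and resistant library 9 was the highest. Its log2FC of 0.28 (standard error 0.10, 95% interval 0.04 to 0.51) did not pass the test (adjusted p = 0.0604 by limma).

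CDC25B made up most of the summed CDC25 values in every library. Its share was 76.3% ± 0.777 in parental and 69.5% ± 1.33 in resistant cells, that of CDC25A 19.4% ± 0.816 and 22.8% ± 0.785, and that of CDC25C 4.37% ± 0.0455 and 7.69% ± 0.811 (SD, n = 3). The groups did not overlap in any of these shares, which depend on gene length and are compared here only between libraries. The shares are parts of the same sum and do not move independently. That of CDC25A rose while its own value fell.

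WEE1 and PKMYT1, the kinases that phosphorylate CDK1 against entry, both had lower means in resistant cells. WEE1 (ENSG00000166483, chromosome 11, 9573670 to 9593457), a nuclear kinase, was at 2721, 2122 and 2274 in parental libraries 1 to 3 and at 2023, 1961 and 2092 in resistant libraries 7 to 9. Parental library 1 stood apart at the top, and parental library 2 lay just above the highest resistant library, so the groups did not overlap. Its log2FC of -0.22 (standard error 0.09, 95% interval -0.43 to -0.02) did not pass the test (adjusted p = 0.0856 by limma). With 1 library left out, it passed only without parental library 2, with -0.30 (adjusted p = 0.0335 by limma). Without parental library 1 it was -0.12 (adjusted p = 0.24 by limma). PKMYT1 (ENSG00000127564, chromosome 16, 2968024 to 2980479), the kinase bound to membranes of the Golgi and endoplasmic reticulum, was at 1312, 1452 and 1245 in the parental and at 1174, 1060 and 1128 in the resistant libraries. The groups did not overlap. PKMYT1 fell by 0.25 on the log2 scale (standard error 0.08, 95% interval -0.44 to -0.06, adjusted p = 0.0396 by limma), and this call was kept in only 4 of 15 alternative settings, with adjusted p up to 0.128.

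The summed CDC25 values over the summed WEE1 and PKMYT1 values had a log2 ratio of 1.29, 1.43 and 1.47 in parental libraries 1 to 3 and of 1.11, 1.15 and 1.03 in resistant libraries 7 to 9. Every resistant library was lower than every parental one, with means of 1.10 ± 0.06 and 1.40 ± 0.10 (SD, n = 3). CDC25B, with a log2FC of -0.67, carries most of the upper sum, and the ratio without it was not computed. CDC25A, WEE1 and PKMYT1 had log2FC of -0.30, -0.22 and -0.25, and CDC25C had 0.28.

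**Figure D3:**
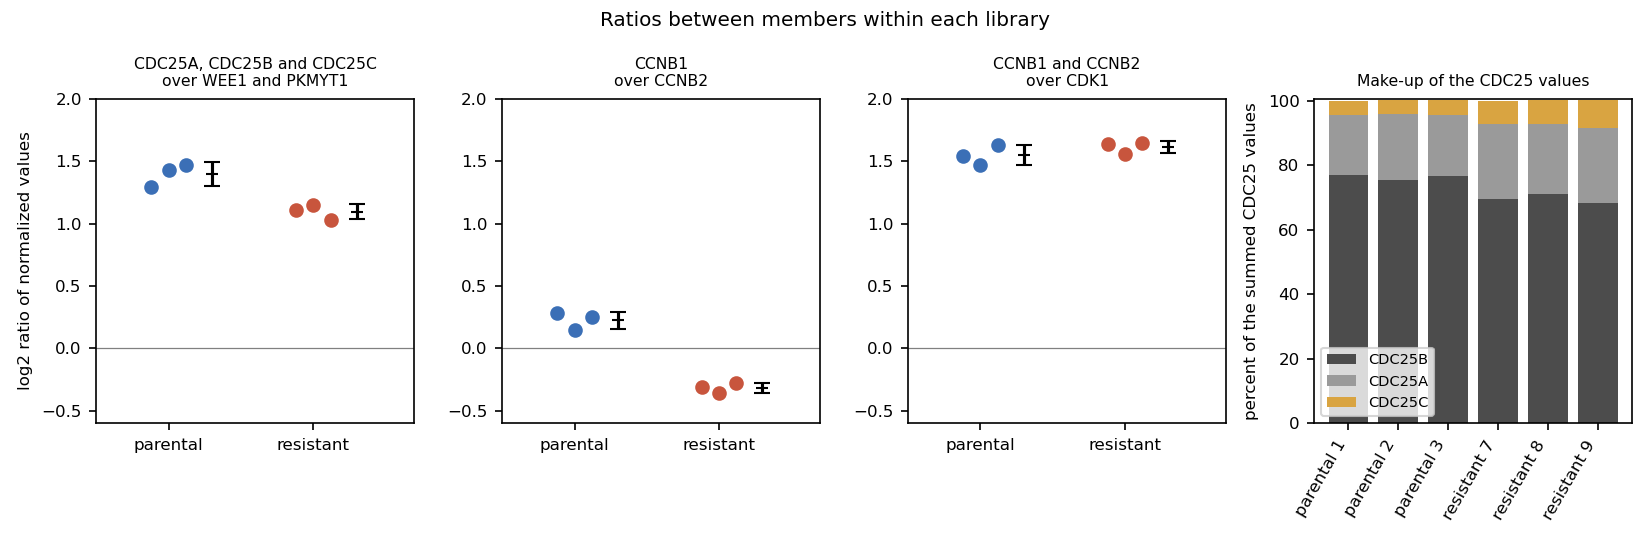
Log2 ratios between members' normalized values within each library (points; black, mean and SD, n = 3 per group) and, at the right, the percent of the summed CDC25 values that each of the 3 genes holds. CCNB1 over CCNB2, not corrected for length, lies above 0 in the 3 parental and under 0 in the 3 resistant libraries.

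FOXM1 and CHEK1 did not pass the test. FOXM1 (ENSG00000111206, chromosome 12, 2857680 to 2877174), the forkhead factor of the G2/M genes, was at 5671, 5095 and 5360 in parental libraries 1 to 3 and at 5505, 5066 and 4907 in resistant libraries 7 to 9. The groups overlapped, and the log2FC was -0.06 (standard error 0.07, 95% interval -0.21 to 0.09, adjusted p = 0.527 by limma). CHEK1 (ENSG00000149554, chromosome 11, 125625163 to 125676255), the kinase of the replication checkpoint, was at 4698, 4248 and 4631 in the parental and at 4723, 4187 and 4187 in the resistant libraries. The highest value of all belonged to resistant library 7, and the log2FC was -0.05 (standard error 0.07, 95% interval -0.21 to 0.11, adjusted p = 0.598 by limma). The intervals of CDK1, FOXM1 and CHEK1 reach down to -0.23, -0.21 and -0.21. PLK1, the drug's target, was at 5311 ± 444 in parental and 5509 ± 276 in resistant cells (SD, n = 3), with a log2FC of 0.06 (adjusted p = 0.598 by limma).

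The order of the members' levels was read from normalized values per kb of the canonical transcript. In parental cells CCNB2 was highest with 2420 ± 231 per kb, followed by CDC25B with 2383 ± 46.4 and CCNB1 with 2084 ± 287 (SD, n = 3), and the ranges of neighbours in this order overlapped. FOXM1 (1513 ± 81.1) and CDK1 (1415 ± 151) came next and also overlapped, then CHEK1 (1096 ± 58.7). WEE1 (661 ± 86.9) and PKMYT1 (648 ± 51.1) did not differ beyond their spread, and CDC25A (490 ± 16.4) and CDC25C (203 ± 3.6) were the lowest per kb. In resistant cells CCNB2 stood alone at 2946 ± 132 per kb, and CDC25B, at 1501 ± 53.1, came after CCNB1 at 1735 ± 107 and overlapped with FOXM1 at 1453 ± 87.1 (SD, n = 3). The order of the other members was the same in both groups.

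Within each group the same library was the highest for most members. Parental library 1 was the highest parental library for 8 of the 10 members, against 37.9% of all genes tested, and parental library 2 the lowest for 8. Resistant library 7 was the highest resistant library for 8 of the 10, against 34.3% of all genes tested. For 34 other G2/M genes the median deviation from each gene's mean over the 6 libraries was 0.15, -0.12 and -0.01 on the log2 scale in parental libraries 1 to 3 and 0.07, -0.03 and -0.04 in resistant libraries 7 to 9. The part of this spread in the results was not tested. Over the 6 libraries, the log2 values of CDK1 had Pearson correlations of 0.81 with WEE1, 0.80 with FOXM1, 0.75 with CCNB1 and 0.65 with CHEK1, and of -0.22 to 0.32 with the other members. The tested genes most like CDK1 were POGK and TM9SF3, with correlations of 0.994 and 0.993 over the 6 libraries, given without a test.

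Genes that lie together on a chromosome can shift together, so each member was set beside the 25 tested genes on either side of it. CCNB2 on chromosome 15 lay in such a stretch. The median log2FC of its 50 neighbours, which start between 55.3 and 63.9 Mb, was 0.52, and 30 of them were higher and 1 lower past the threshold. CCNB2 itself rose by 0.29, and 28.0% of its neighbours had a lower log2FC, counting those that fell. When the median deviation of the neighbours was subtracted in each library, CCNB2 had a log2FC of -0.31 (standard error 0.08, adjusted p = 0.0142 by limma), so its direction turned. For the other 9 members the median of the neighbours lay between -0.04 and 0.15. CDC25B (-0.73, adjusted p = 2.09e-05 by limma) and CDC25A (-0.30, adjusted p = 0.0138) stayed past the threshold after the subtraction, CCNB1 passed it (-0.33, adjusted p = 0.0116) and PKMYT1 did not (-0.21, adjusted p = 0.0872). The count then was 0 higher and 4 lower, where 31.0% of all genes tested were past the threshold, 14.6% higher and 16.4% lower. At an unadjusted p under 0.05 before the subtraction the members numbered 2 higher and 5 lower, and over all genes tested the shares were 22.8% and 24.3%. Gene copies were not measured.

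**Figure D4:**
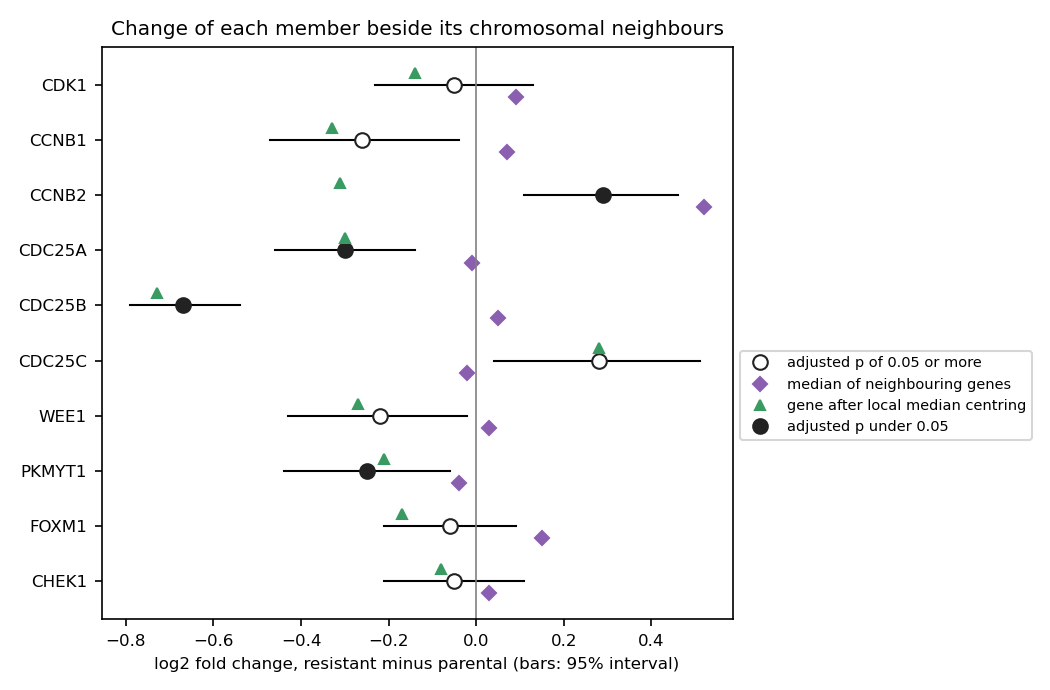
Log2FC of each member, resistant minus parental, with its 95% interval (filled circles, adjusted p under 0.05 by limma), beside the median of its chromosomal neighbours (diamonds) and its own change after that median was subtracted in each library (triangles). The neighbours of CCNB2 lie at 0.52 and CCNB2 moves from 0.29 to -0.31, while CDC25B moves from -0.67 to -0.73.

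Several members share sequence or a start region with another gene, and the strand setting of the counting is not given in the sources used here, so reads in shared stretches cannot be told apart. CENPB, which encodes a centromere protein, starts 32 bases from the first annotated start of CDC25B on the opposite strand. That start, at 3786772, is not the canonical one, whose printed window runs from 3796060 to 3796339. CENPB fell too, from 8067 ± 364 to 5958 ± 90.4 (SD, n = 3), a log2FC of -0.44 (adjusted p = 0.000294 by limma). PAQR4 overlaps PKMYT1 over 4215 bases on the opposite strand and fell by 0.48 (adjusted p = 0.00111 by limma). By their gene records FAM53C overlaps CDC25C over 6421 bases. FAM53C starts at 138331935, before the canonical start of CDC25C and inside its printed window, so the overlap lies outside the canonical transcript. FAM53C fell by 0.23 (adjusted p = 0.0294 by limma), opposite in sign to CDC25C. Of the genes that overlap FOXM1 or start beside it, ITFG2 fell by 0.39 (adjusted p = 0.0427 by limma), and RHNO1 and TULP3 had log2FC of 0.14 and -0.05 that did not pass. STT3A, which overlaps CHEK1 over 53 bases, ACRV1, which overlaps it over 4734 bases, and KREMEN2, which overlaps PKMYT1 over 357, had -0.13, 0.05 and 0.29 and did not pass. The noncoding and pseudogene records inside or beside members were at 0 or near it in all 6 libraries, at most 11.45 for 1 that overlaps CCNB2.

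The wider pathway was described through 8 lists with 141 genes tested, of which 51 were past the threshold (36.2%, against 37.7% of all genes), 16 higher and 35 lower in resistant cells. Of the partners and activators of CDK1, 11 of 12 were tested, with 1 higher and 3 lower and a median log2FC of -0.19. CDK2, the S phase kinase, fell from 2906 ± 29.8 to 1975 ± 103 (log2FC -0.56), and CKS2, a small subunit that binds CDK1, from 1466 ± 119 to 975 ± 114 (log2FC -0.59, SD, n = 3). MNAT1, a subunit of the CDK-activating kinase, rose from 751 ± 114 to 1172 ± 31.6 (log2FC 0.65, SD, n = 3). Its neighbours on chromosome 14 had a median log2FC of 0.37. With that median subtracted MNAT1 had 0.26 and no longer passed (adjusted p = 0.104 by limma). Cyclin A2, Aurora A and BORA, which helps Aurora A to activate PLK1, did not pass the test, with log2FC of -0.06, 0.00 and 0.22.

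Greatwall kinase, MASTL, and its targets ENSA and ARPP19 shut off the phosphatase PP2A that reverses CDK1 phosphorylation. Of 9 genes of this arm, 1 was higher and 3 lower. ARPP19 rose from 6359 ± 276 to 8663 ± 395 (log2FC 0.45), while ENSA, its close relative, fell from 12709 ± 772 to 9618 ± 401 (log2FC -0.40, SD, n = 3). With the median of its neighbours subtracted ARPP19 had -0.12 and no longer passed (adjusted p = 0.139 by limma). ENSA then had -0.39 and did pass (adjusted p = 0.000834 by limma). PPP2R1A, the scaffold subunit of PP2A, fell from 20316 ± 696 to 15867 ± 438 (log2FC -0.36, SD, n = 3). MASTL itself had a log2FC of 0.13 that did not pass.

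Of 16 genes of the ATR chain that activates CHEK1, 3 were higher and 3 lower, with a median of 0.00. TIMELESS, a fork protection protein, fell from 4754 ± 165 to 2568 ± 4.01 (log2FC -0.89), and RAD1, a clamp subunit, from 2343 ± 69.0 to 1715 ± 163 (log2FC -0.45, SD, n = 3). TOPBP1, the activator of ATR, rose from 4328 ± 150 to 6004 ± 121 (log2FC 0.47, SD, n = 3). ATR and CLSPN, the adaptor that brings CHEK1 to ATR, did not pass, with 0.11 and 0.01.

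Among the 14-3-3 proteins, which hold phosphorylated CDC25 away from CDK1, and the ligases that turn over CDC25A, WEE1 and cyclin B, 0 were higher and 7 lower of 14 tested, with a median of -0.27, where 19.8% of all genes tested were lower. At an unadjusted p under 0.05 by limma, 0 were higher and 8 lower, against 22.8% and 24.3% of all genes tested. FBXW11, an F-box protein that marks WEE1 for breakdown, fell from 2050 ± 39.6 to 1092 ± 104 (log2FC -0.91). The 14-3-3 genes YWHAE and YWHAG fell from 17122 ± 614 to 12578 ± 488 and from 16546 ± 902 to 11851 ± 450 (log2FC -0.45 and -0.48, SD, n = 3). With the median of its neighbours subtracted YWHAG had -0.13 and no longer passed (adjusted p = 0.167 by limma). BTRC, the paralog of FBXW11, had 0.10 and did not pass.

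Of 22 genes that act on cell cycle promoters, 3 were higher and 5 lower, with a median of -0.04. E2F2 rose from 735 ± 55.2 to 1130 ± 96.6 (log2FC 0.62) and the pocket protein RBL2 from 1068 ± 112 to 1596 ± 128 (log2FC 0.58), both with SD and n = 3, and the repressor E2F6 fell by 0.50. MYBL2, the partner of FOXM1 on CHR promoters, was picked with its values known and fell from 9763 ± 544 to 7989 ± 266 (log2FC -0.29, adjusted p = 0.00496 by limma).

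The other G2/M genes held 6 higher and 5 lower among 34, with a median of -0.01. PRC1, which bundles microtubules of the central spindle, fell from 4641 ± 259 to 2941 ± 91.1 (log2FC -0.66). AURKB and BIRC5, both of the chromosomal passenger complex, fell from 1967 ± 35.5 to 1405 ± 161 and from 4512 ± 253 to 3422 ± 252 (log2FC -0.49 and -0.40, SD, n = 3). MKI67, the proliferation marker, was picked with its values known and rose from 10747 ± 561 to 15030 ± 2204 (log2FC 0.47, adjusted p = 0.0041 by limma). Of 27 G1/S genes, 2 were higher and 6 lower, with a median of -0.03. CHAF1B, a histone chaperone subunit, rose from 1772 ± 90.2 to 3624 ± 217 (log2FC 1.03), and MCM7 of the replicative helicase and UNG, which removes uracil from DNA, fell by 0.71 and 0.66. Of 8 tested genes of p53 and its G2 arrest targets, 0 were higher and 3 lower, against 17.8% and 19.8% of all genes tested, and at an unadjusted p under 0.05 by limma 0 were higher and 4 lower, against 22.8% and 24.3%. The 3 were MDM2, BTG2 and GADD45G, with log2FC of -0.52, -0.66 and -1.02. For the 24 genes named by rule from these lists the largest adjusted p was 0.0206 by limma, that of GADD45G.

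Many of these pathway changes also moved with their chromosomal neighbours. The neighbours of CDK2, TIMELESS, UNG and MDM2 on chromosome 12 had median log2FC of -0.60, -0.61, -0.57 and -0.52, those of CHAF1B on chromosome 21 one of 0.91, those of PRC1 and ARPP19 on chromosome 15 of -0.58 and 0.53, and those of MCM7 on chromosome 7 one of -0.50. After the median of the neighbours was subtracted, 30 of the 51 called pathway genes (58.8%) were still past the threshold in the same direction, 20 were not and 1, PPP2R1A, passed in the other, with a log2FC of 0.20. Over all genes called the share that stayed was 68.7%. Of the 24 named genes 9 no longer passed: CDK2 (-0.02), MNAT1 (0.26), ARPP19 (-0.12), YWHAG (-0.13), PRC1 (-0.09), CHAF1B (0.12), MCM7 (-0.20), UNG (-0.07) and MDM2 (0.02). Those that did pass included CKS2 (-0.59), ENSA (-0.39), FBXW11 (-0.64), YWHAE (-0.47), AURKB (-0.49) and BIRC5 (-0.44).

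**Figure D5:**
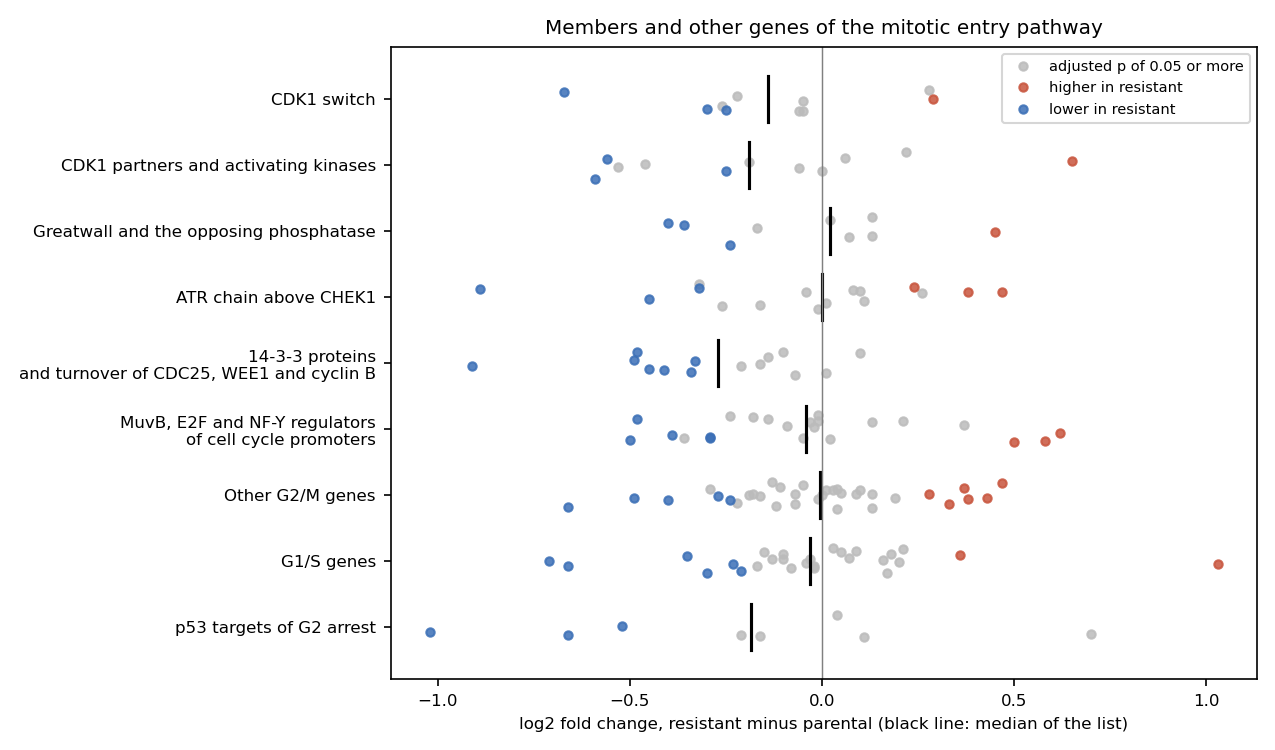
Log2FC, resistant minus parental, of each tested gene in the list of members and in 8 other lists, with genes past an adjusted p of 0.05 by limma in colour and the median of each list as a black line. The list of 14-3-3 proteins and turnover factors has 7 genes lower and 0 higher, and the medians of the lists lie between -0.27 and 0.02.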

How the data were processed

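RNA-seq libraries of parental (3) and onvansertib-resistant (3) H526 cells were compared. Per the methods, the authors trimmed reads with Trimmomatic 0.38, quantified them with RSEM 1.3.1 (GRCh38, Gencode v43) and normalized gene counts with DESeq2 (1.30.0 in the submitters' processing notes). The deposited values are a normalized signal, not whole counts: only 48.9% to 60.1% of low values were whole multiples of 1 read within 0.05 reads, so no count test was run. Such scaling makes values comparable between libraries but assumes that most genes do not change. Of 62757 rows, 47 second copies of pseudoautosomal genes were left out, and symbols and positions came from Gencode v44.

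Genes with a mean of at least 10 (16347) were fitted on log2(value + 1) with limma 3.58.1 in R 4.3.3 (intensity trend, condition as the only term, Benjamini-Hochberg adjustment, threshold 0.05). Tested on simulated data for 16255 genes, the fit called 50 of 100 genes changed by 0.5 and 85 of 100 changed by 1 on the log2 scale, and 3.57% of its calls were false. Only those genes were changed, some up and some down, whereas 37.7% of genes were called in the data. All of them were drawn from genes with larger mean values. Changes under 0.5, which all members but CDC25B had, were not simulated. The simulated shares hold for that setting only. The members, lists and tests were chosen with earlier results of these data known. Named are the members, genes overlapping them or starting within 1000 bases, PLK1, up to 3 called genes per list by p with the rarer direction, and the 3 genes most correlated with CDK1, of which 1 is not reported here. CCNA2, AURKA, BORA, MASTL, ATR, CLSPN and BTRC were added for their roles, with their values known. The alternatives are those of the closing section. Other steps used Python 3.11.15.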

Additional observations from a re-analysis of the deposited data

How the results depend on the processing

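Over 15 alternatives, CDC25A (-0.33 to -0.24) and CDC25B (-0.73 to -0.61) stayed lower and past the threshold in each. The number of members higher was 2 with upper quartile scaling, quantile normalization and array weights, 0 without the trend and with local median centring, and between 0 and 1 with 1 library left out. CDC25C accounts for the added member, with adjusted p of 0.0286, 0.0413 and 0.0489 by limma. CCNB2 accounts for the lost one, with an adjusted p of 0.0709 without the trend and a log2 fold change of -0.31 with local median centring. CCNB1 passed with array weights (adjusted p = 0.0397 by limma). PKMYT1 had adjusted p from 0.0353 to 0.128 and lost its call in 11 of the 15. Signs turned for CDK1, to 0.01 with upper quartile scaling and, with 1 library left out, between -0.10 and 0.04 (0.04 without parental library 1), and for CHEK1, to 0.00 with upper quartile scaling. Of the other pathway lists, 9 genes were higher without the trend, and between 10 and 18 with 1 library left out, the lowest without resistant library 7. The causes were not tested. Calls over all genes tested stayed within 1.5 times of the main numbers. The paper calls the parental and resistant samples matched, but the library numbers do not say which ones belong together. No paired analysis was therefore run, and an effect of harvest shared by both groups was not tested. Standard errors of the members' log2 changes lay between 0.06 and 0.10, which limits what 3 libraries a group can show.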
